A study of Mus musculus with 4 samples.

Results

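The cytosolic ribosomal protein genes were read across 4 arrays of mouse B cells. They were taken as every probe set whose platform annotation gives a single symbol that starts with Rpl or Rps followed by a digit, or that is Rplp0, Rplp1, Rplp2 or Rpsa, without the Rps6k kinases and without pseudogene symbols. This gave 106 of the 45101 probe sets on the array, for 50 genes: 21 of the small subunit, 22 of the large subunit, 6 paralogs named after a core protein (Rpl22l1, Rpl7l1, Rps27l, Rpl39l, Rps4l and Rpl3l) and Rps19bp1, which codes for a protein that binds Rps19 and is not part of the ribosome. A single probe set stood for 26 of the genes. Another 110 probe sets list at least 1 of 46 ribosomal protein genes beside other symbols and lie outside the rule. Rplp1, Rpl3, Rpl5 and Rpl10 are measured by such probe sets alone. So are many other core genes, among them Rpl13, Rpl15, Rpl17, Rpl21, Rpl23, Rpl24, Rpl26, Rps12, Rps13, Rps21 and Rps23. The 50 genes leave these out.

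The ribosome is built from a small subunit, which reads the mRNA, and a large subunit, which joins the amino acids. Its proteins are made in near equal amounts from single-copy genes that have many processed pseudogenes, and their mRNAs are among the most abundant of a cell. These mRNAs start with a run of pyrimidines, the 5' TOP (terminal oligopyrimidine) motif, through which mTORC1, a nutrient-sensing kinase complex, controls their translation. Germinal centre (GC) B cells divide rapidly in response to antigen, whereas naive B cells are small resting cells.

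Each group was 1 array of RNA pooled from 3 to 5 adult wild-type C57BL6/J mice. The sort took B220+PNA+Fas+ cells as GC and B220+PNA-Fas- cells as naive. One source was the peripheral lymph nodes (pLN) of mice given TNP-KLH, a hapten on a carrier protein, with incomplete Freund's adjuvant. The other was the Peyer's patches (PP), gut lymphoid follicles, of mice that had not been immunised. Tissue and immunisation therefore cannot be told apart, and pooling leaves no spread between mice. Precision is limited by how few arrays there are.

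Signals below are deposited intensities scaled to a trimmed mean of 500 on each array. A log2 fold is the difference between 2 arrays of log2(signal + 14.2), which understates the change of dim probe sets. The cell types were compared by limma with tissue as a block, and a probe set was called at an adjusted p under 0.05 over the 22893 probe sets tested. Signals of different probe sets are not compared as mRNA levels. Where 4 signals follow each other with no label, they stand for pLN and then PP, GC before naive in each. In bulk samples, fewer cells of a type and less RNA per cell cannot be told apart.

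The arrays were checked on sort and lineage markers and on RNA quality. Fas, the death receptor used in the sort, was higher in GC cells (log2 fold 3.30 ± 0.42 (SE), limma adjusted p = 6.1e-07), and Bcl6, the GC transcription factor, was not called (0.79 ± 0.46, limma adjusted p = 0.151). All 7 B cell markers measured were above the detection level on all 4 arrays, as were all 5 naive B cell markers, and 7 of 7 GC markers were above it on the GC arrays against 4 and 3 on the naive arrays. Plasma cell markers above it numbered 4 to 6 of 7 (summed signal 7996 to 27444, higher on the GC arrays), and stromal markers 1 to 4 of 9, led by Cr2, which B cells express too. Of 10 T cell markers, 2 to 9 were above it, with a summed signal of 727 to 1348. Of 11 macrophage markers, 4 or 5 were above it (summed signal 1225 to 4494, higher on the GC arrays). Of 10 gut epithelial markers, 2 were above it on both pLN arrays and 7 on both PP arrays. Of 4 erythroid markers, 0 were above it. Gapdh, read by its 3' control over its 5' control, gave a ratio of 1.48 (GC) and 18.7 (naive) in pLN and 1.67 (GC) and 96.4 (naive) in PP, and that of Actb was 1.52, 12.2, 1.82 and 67.2. The median signal of 9 bacterial and phage spike-in probe sets was 3217, 4588, 3071 and 11565 across these arrays. These values move with cell type, and their part in the results below was not tested.

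Near the start of transcription, the ribosomal protein genes held CTTTCC, a pyrimidine run, more often than genes at large. RefSeq's promoter table (GRCm38.p6) held 44 of the 50 genes. On the gene's own strand, CTTTCC lay within 50 bases of the start in 12 of the 44 genes (27.3%), against 5.43% of 27025 genes in the table and 4 of 67 genes for mitochondrial ribosomal proteins (5.97%). On either strand it lay there in 31.8% of the ribosomal protein genes and 10.3% of all genes. CCGGAA, the core of sites bound by ETS factors, lay in the same window on either strand in 28 of the 44 (63.6%), against 16.7% of all genes and 56.7% of those for mitochondrial ribosomal proteins. Both motifs were found in 9 of the 44 genes, and they overlap by 4 bases where CTTTCC is followed by GG. A match of letters is a description and no site was tested. A match could lie anywhere in the window, so it need not be the TOP motif, which starts the mRNA. In Rpl4 below it ends before the annotated start, and in Rpl13a it begins after it. The windows below run from 25 bases before the annotated start to 25 bases from it on, on the gene's strand, with CTTTCC in capitals. They are examples and do not cover the whole range of folds described below. On their brightest single-symbol probe sets, Rpl35, Rpl13a, Rps10 and Rpl4 had GC-naive log2 folds from -1.98 to -1.68, and Rps27 had 1.25.
Rpl35, chr2:39005107-39005156, minus strand: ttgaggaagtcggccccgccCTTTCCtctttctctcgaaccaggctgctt
Rpl13a, chr7:45128721-45128770, minus strand: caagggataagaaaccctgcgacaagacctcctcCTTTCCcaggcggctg
Rps10, chr17:27635220-27635269, minus strand: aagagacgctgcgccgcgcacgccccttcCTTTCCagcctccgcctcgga
Rpl4, chr9:64173362-64173411, plus strand: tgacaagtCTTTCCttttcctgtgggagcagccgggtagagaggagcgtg
Rps27, chr3:90213624-90213673, minus strand: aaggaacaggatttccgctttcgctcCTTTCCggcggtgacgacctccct

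Core genes with and without this motif had similar folds. The 11 core genes with CTTTCC had a median GC-naive log2 fold of -1.31 (range -1.98 to 1.25), and 6 of them were called lower. The 26 core genes without it had a median of -1.29 (range -2.02 to 2.21), and 15 were called lower.

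Most ribosomal protein probe sets that changed were lower in GC than in naive B cells, while the array as a whole moved the other way. Of the 106 probe sets, 98 (47 genes) passed the detection level of both arrays for 1 or both cell types and were tested. By limma, 36 were called lower in GC cells, 19 higher and 43 neither way. Over all probe sets tested, 17.4% were called lower and 33.0% higher. The median log2 fold of the 98 was -0.75, against 0.39 over all probe sets tested. The direction was the same in both tissues for 36 of 36 lower and 19 of 19 higher calls. A call rests on the mean fold of the tissues and on a variance drawn mostly from other probe sets. A large mean fold by itself favours a shared direction. These counts are therefore no separate evidence of replication. Of the 8 probe sets not tested, 4 were above the level on 0 arrays.

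With each gene represented by its brightest probe set, 24 of 47 genes were called lower, 6 higher and 17 neither way in the fit over all probe sets. In a limma fit over 1 probe set per gene alone, 16 of the same 47 were called lower and 5 higher. Over all 10192 genes the shares were 24.0% lower and 24.8% higher. The median log2 fold was -1.14 for the ribosomal protein genes and -0.04 for all genes. Both subunits held more lower than higher calls. In the small subunit 12 of 20 genes were lower and 4 higher (median -1.37), and in the large subunit 12 of 22 were lower and 1 higher (median -1.20).

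The direction of this shift rests on the scaling of the arrays. The members' median was -0.89 on the deposited values as they stand, but 0.22 after quantile normalization, 0.12 after cyclic loess and 0.46 after scaling to the spike-ins. The median of all probe sets tested under those 4 settings was 0.26, 0.09, 0.14 and 1.51. Relative to the median of all, the members stood at -1.14 under the main scaling and at -1.14, 0.13, -0.02 and -1.05 under the others. The 36 lower calls became 41, 6, 6 and 0, and the 19 higher calls became 19, 30, 23 and 11. Under those settings the lower calls were 41.8%, 6.12%, 6.12% and 0% of members, against 20.4%, 21.4%, 22.2% and 0.22% of all. The higher calls were 19.4%, 30.6%, 23.5% and 11.2% of members, against 30.9%, 24.8%, 28.1% and 19.0% of all. Of the 36 probe sets, 0 were called lower under all 4 other scalings and 26 kept their sign under all of them. Of the 19 higher calls, 19 kept their sign and 10 were called under all 4. With 1 array left out, the members' median was -0.73 without GC pLN, -0.80 without GC PP, -0.97 without naive pLN and -0.64 without naive PP. The medians of all probe sets tested were 0.41, 0.35, 0.48 and 0.26. Each such fit leaves 1 array of a cell type, so its calls are not counted. They varied widely with the array left out, for the members and for all probe sets. At an unadjusted limma p under 0.05 the count of 0 lower was 5 under spike-in scaling.

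**Figure D1:**
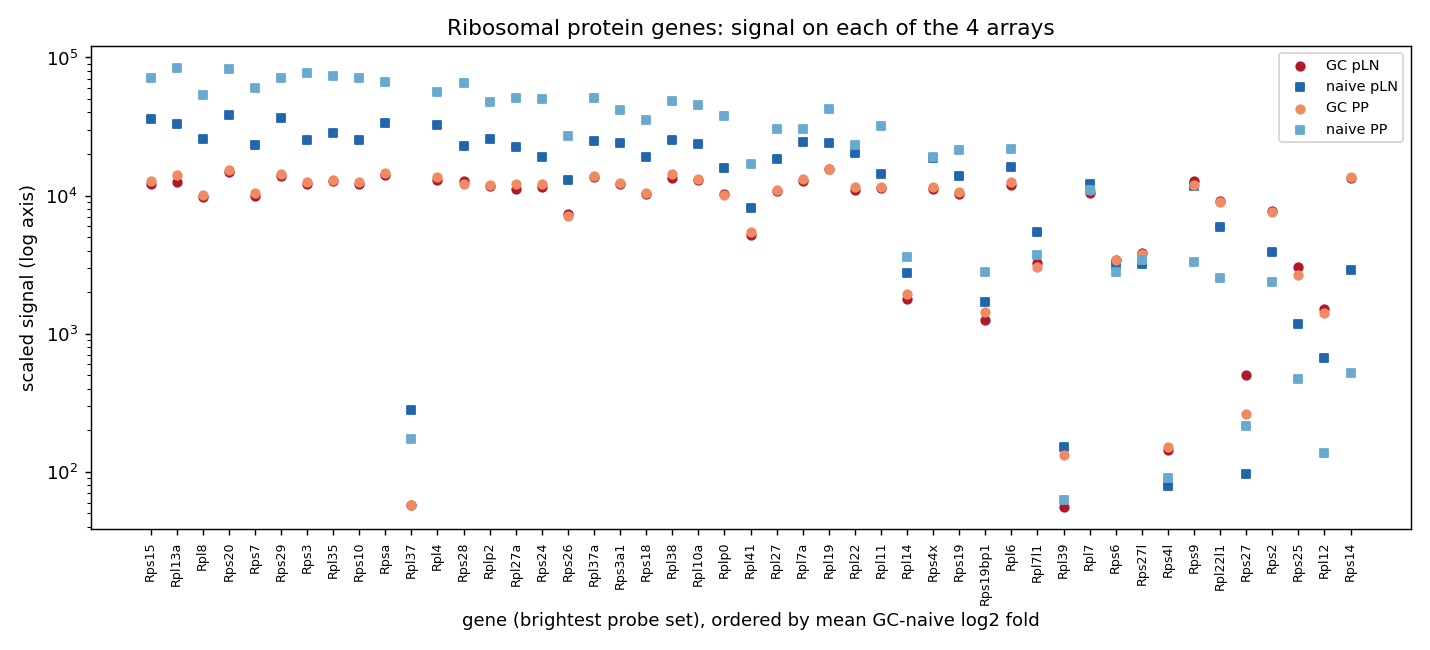
Scaled signal (log axis) of the brightest probe set of each of the 47 tested ribosomal protein genes on the 4 arrays, ordered by the mean GC-naive log2 fold; circles are GC cells and squares naive cells. The 2 GC arrays nearly coincide for bright probe sets, the naive arrays lie above them on the left, from Rps15 (-2.02), and below them on the right, to Rps14 (3.43).

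Among small subunit genes, the lowest folds belonged to Rps15, Rps20, Rps7, Rps29 and Rps3. Rps15, a protein of the head of the small subunit, had signals of 12197 (GC) and 35947 (naive) in pLN and 12825 (GC) and 71341 (naive) in PP. Both naive arrays lay above both GC arrays, by 2.95-fold in pLN and 5.56-fold in PP (log2 fold -2.02 ± 0.54 (SE), limma adjusted p = 0.00343). Rps20 read 14821, 38498, 15249 and 81832 in the same order (-1.90 ± 0.56, limma adjusted p = 0.00641). Rps7 read 10007, 23396, 10364 and 60115 (-1.88 ± 0.53, limma adjusted p = 0.00503). In each of these genes the naive PP array was the highest and the GC arrays were the lowest, without overlap. Choosing genes by their low folds favours such an order. The other single-symbol probe set of Rps7 (-0.70) and its shared one (-0.45) were not called.

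Rps29, a small zinc-binding protein, read 13786, 36653, 14377 and 71435 (-1.86 ± 0.55, limma adjusted p = 0.00665). Its 3 probe sets were the most alike of any gene with several, with folds from -2.08 to -1.86. Rps3, which lines the mRNA entry channel, read 12130.1, 25068.5, 12647 and 77448.5 (-1.83 ± 0.55, limma adjusted p = 0.00778). Rpsa, also known as the laminin receptor precursor, read 14072, 33648, 14638 and 66063 (-1.71 ± 0.55, limma adjusted p = 0.0112). The other small subunit genes called lower were Rps10, Rps28, Rps24, Rps26, Rps3a1 and Rps18, with folds from -1.77 to -1.32. Rps4x (-0.74), Rps19 (-0.72), Rps6 (0.19) and Rps9 (0.99) were not called.

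Rps14, a core protein of the small subunit, stood apart from these. It read 13339 (GC) and 2882 (naive) in pLN and 13527 (GC) and 520.4 (naive) in PP. Here both GC arrays lay above both naive arrays, by 4.63-fold in pLN and 26.0-fold in PP (log2 fold 3.43 ± 0.49, limma adjusted p = 3.8e-06). Its second probe set read 8298, 2401, 8736 and 779 and was called higher too (2.62 ± 0.46). Both were called higher under all 4 other scalings. Both are _x_at sets, some of whose probes match other sequences as well. Rps2, which sits at the mRNA entrance, read 7783, 3909, 7559 and 2369 (1.33 ± 0.44, limma adjusted p = 0.0149).

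Rps25 and Rps27 were called higher on their only probe set with a single symbol. Rps25, needed for initiation at some viral internal ribosome entry sites, read 3019, 1185, 2669 and 471 (1.90 ± 0.43, limma adjusted p = 0.000677). Rps27, a zinc-finger protein, read 507, 97.0, 263 and 214 (1.25 ± 0.49, limma adjusted p = 0.0352), and its GC PP and naive PP arrays differed little. Rps9, one of the first proteins to join the small subunit, read 12689, 11647, 11925 and 3299.7 and was not called (0.99 ± 0.50, limma adjusted p = 0.0986). Its low value lay on the naive PP array alone. Its other probe sets were called both ways, one higher (1.62 ± 0.46, limma adjusted p = 0.00499) and one lower (-1.67 ± 0.41, limma adjusted p = 0.00169).

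In the large subunit, Rpl13a, Rpl8 and Rpl35 had the lowest folds. Rpl13a, also known as a repressor of translation in interferon-treated myeloid cells, read 12626, 33006, 14063 and 84049 (-1.98 ± 0.55, limma adjusted p = 0.00444). Rpl8, near the peptidyl transferase centre, read 9806, 25883, 10134 and 53658 (-1.90 ± 0.53, limma adjusted p = 0.00416). Rpl35, beside the exit of the peptide tunnel, read 12834, 28463, 12942 and 73418 (-1.83 ± 0.55, limma adjusted p = 0.00768). The naive arrays lay above the GC arrays without overlap in all of them, an order that the choice by lowest fold favours. Over single-symbol probe sets, the 4 of Rpl13a ran from -1.98 to -0.67 and the 6 tested of Rpl35 from -1.83 to 0.22. The upper end of each was not called. Of 2 shared probe sets of Rpl13a, 1 was called lower and 1 higher. The higher one read 358.9, 55.8, 257.5 and 5.2, with both naive signals under the detection level.

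Of the 3 stalk proteins, which recruit translation factors to the large subunit, 2 were called lower. Rplp0, the base of the stalk and a common reference gene, read 10336, 15797, 10136 and 37716 (-1.25 ± 0.52, limma adjusted p = 0.0459), and its sign turned under quantile normalization (0.030). Rplp2 read 11739.6, 25905, 12034 and 47442 (-1.56 ± 0.53, limma adjusted p = 0.0161). Rplp1, their partner, is on 1 probe set with several symbols and read 11364, 12857, 11327 and 12008 (-0.13 ± 0.49, not called). The other large subunit genes called lower were Rpl37, Rpl4, Rpl27a, Rpl37a, Rpl38, Rpl10a and Rpl41, with folds from -1.70 to -1.14. The 9 not called (Rpl27, Rpl7a, Rpl19, Rpl22, Rpl11, Rpl14, Rpl6, Rpl39 and Rpl7) had folds from -1.11 to -0.10.

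Rpl12, beside the stalk, was the only large subunit gene called higher on its brightest single-symbol probe set. It read 1515, 665, 1411 and 136 (2.21 ± 0.46, limma adjusted p = 0.000361). The calls of Rpl12, Rps25 and Rps27 were not kept under all 4 other scalings. The naive PP array was lowest, and both naive arrays lay below both GC arrays.

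Of the 6 paralogs, 4 were tested, and on the brightest probe set 1 was called higher, 0 lower and 3 neither way (median 0.47). Over all genes 24.8% were higher and 24.0% lower, so 4 genes are too few to set the paralogs apart. Rpl22l1, which can take the place of Rpl22 in the ribosome, read 9071, 5895, 9008 and 2524 (1.22 ± 0.46, limma adjusted p = 0.0295), and its call held under all 4 other scalings. Its parent Rpl22 read 11041, 20397, 11471 and 23085 and was not called (-0.95 ± 0.50, limma adjusted p = 0.118), with both naive arrays above both GC arrays. Another probe set of Rpl22 was called higher (1080.0, 349, 1059.5 and 182, log2 fold 2.02 ± 0.43, limma adjusted p = 0.00044), and a further one was not called (-0.17 ± 0.50). The difference between the pair was not tested.

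Rps27l, a p53 target related to Rps27, read 3868, 3173, 3795 and 3404 on its brightest probe set (0.22 ± 0.43, not called). Its other 2 probe sets were called higher, at 1.53 ± 0.42 (limma adjusted p = 0.00387) and 2.02 ± 0.44 (limma adjusted p = 0.00048). Rpl7l1, a paralog of Rpl7 that acts in assembly of the large subunit, read 3239, 5455, 3031 and 3715 (-0.52 ± 0.43, not called), against 10486, 12098, 11035 and 11039.8 for Rpl7 (-0.10 ± 0.48, not called). Other probe sets of Rpl7l1 had folds of 0.94 ± 0.41 (limma adjusted p = 0.0591) and -0.38 ± 0.42, neither called. Rps4l read 144, 79.1, 152 and 90.2 (0.72 ± 0.48, not called), with the naive PP value under that array's detection level of 99.9, and Rps4x read 11171, 18821, 11488 and 19169.7. Rpl39l (129, 17.1, 57.7 and 105) and Rpl3l (2.8 to 10.2) did not pass the filter. Rps19bp1 read 1253, 1692, 1427 and 2785 (-0.69 ± 0.42, not called), and Rps19 read 10227, 13947, 10706 and 21299.5.

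Probe sets of a single gene often pointed in opposite directions. Of the 21 ribosomal protein genes with at least 2 tested probe sets, 12 (57.1%) held folds of both signs and 6 (28.6%) had probe sets called both ways. Over the 4997 such genes on the array the shares were 48.3% and 10.4%. The median range of fold within a gene was 1.80 for the ribosomal protein genes and 1.63 for all. The position of each probe set along its transcript was not analysed here, so the part of the 3' bias in these ranges was not tested. The 3' control probe set of Gapdh itself read 10457, 17780, 10781 and 31609.7, lower in GC cells, whereas its 5' control read 7068, 949, 6473 and 328, higher in GC cells.

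Rps10, a protein of the small subunit's beak that is ubiquitinated when ribosomes stall, had the widest measured range, 5.73. One probe set read 12188 (GC) and 25079 (naive) in pLN and 12450.5 (GC) and 70951 (naive) in PP, a log2 fold of -1.77 ± 0.55 (limma adjusted p = 0.00907). Another read 13549, 731, 13336.5 and 989.6, a log2 fold of 3.96 ± 0.43 (limma adjusted p = 6.5e-08). The first was higher on both naive arrays and the second on both GC arrays.

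Rps20 was called both ways. Its brightest probe set was called lower (-1.90), while 2 dim ones were called higher. Both dim ones lay under the detection level on both naive arrays, so their change has only a bound, of at least 2.30-fold and 1.76-fold, and the range of the gene has no exact value. Rpl41, a peptide of the large subunit with very few residues, had a range of 3.78 and folds from -1.75 to 2.03. Rps3 had a fold of -1.83 on one probe set and 1.83 ± 0.42 (limma adjusted p = 0.000842) on the other, which read 2854, 1059.8, 2327 and 480.3. Rpl27 ranged from -1.11 to 2.52 and Rps18 from -1.43 to 1.89.

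**Figure D2:**
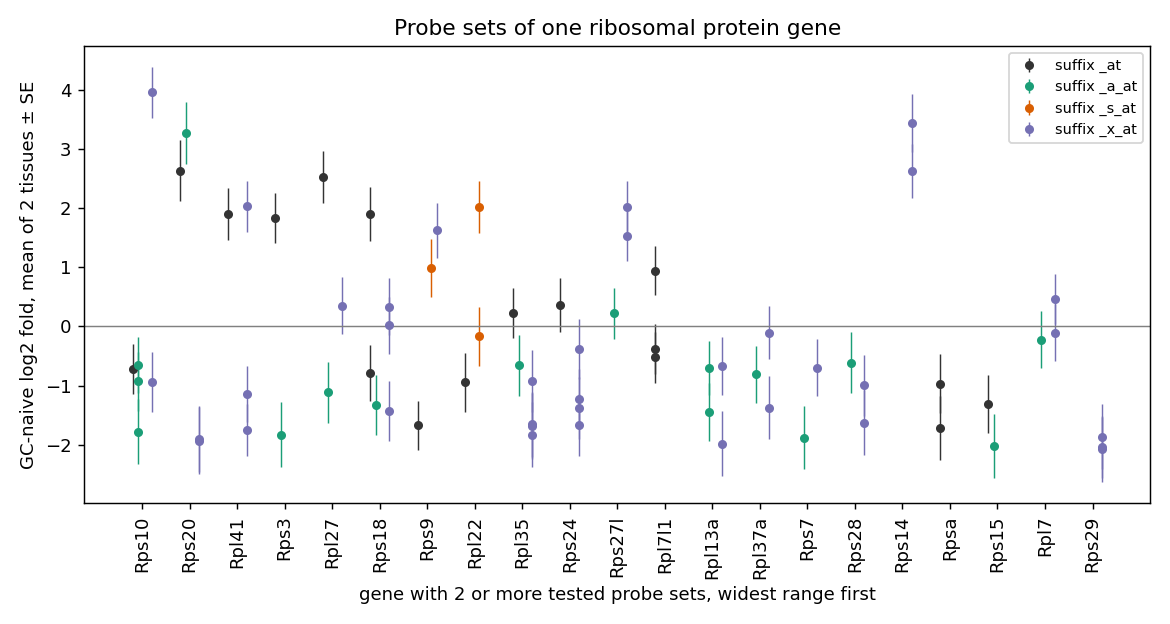
GC-naive log2 fold (mean of the 2 tissues, ± SE) of every tested probe set of the 21 genes with 2 or more, widest range first; colours give the probe set suffix. The 2 upper points of Rps20 are set against naive signals under the detection level. Rps10 spans -1.77 to 3.96, Rps29 lies between -2.08 and -1.86, and both probe sets of Rps14 are above 0.

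The same held between single-symbol probe sets and those shared with other symbols. Rps25, called higher above, read 12158, 29176, 10616 and 68755 on a shared probe set, which was called lower (-1.98 ± 0.55, limma adjusted p = 0.00411). Rps27 read 14509, 37849, 14700.0 and 94144 on a shared probe set, also called lower (-2.03 ± 0.56, limma adjusted p = 0.00426). The shared probe sets of Rpl12 had folds of -1.73 (called lower) and -0.90 (not called), and those of Rps2 had -0.93 and -0.82 (neither called). Rps14 and Rpl22l1 were the only genes among the 6 called higher that had no shared probe set.

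Some core genes were measurable mainly through shared probe sets, and these were named after their values were seen. The single-symbol probe set of Rps16 read 0.4 to 3.2, under the level on every array, while a shared one read 10461, 19271, 10713 and 49843 and was called lower (-1.55 ± 0.53, limma adjusted p = 0.017). A second shared one read 11847, 16681, 12258 and 16156 and was not called (-0.45 ± 0.50, limma adjusted p = 0.468). Rpl37 read 57.6, 279, 58.1 and 173 on its single-symbol probe set, with GC PP under the level, and was lower on both kinds. Rps6, the target of the S6 kinases, was not called on its own probe set (3422, 3222, 3439.9 and 2791), while 7 of its 9 shared probe sets were called lower, one of them at -1.82 ± 0.54 (limma adjusted p = 0.00684). Rpl3 (-1.80) and Rpl5 (-1.45), on their brightest shared probe sets, were also called lower. Over all 110 shared probe sets, 105 were tested, 48 were lower, 8 higher, and the median was -1.14.

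The probe set suffix went with the fold. On this platform an _at set was designed for 1 transcript, an _a_at set for several transcripts of a gene, and an _x_at set holds probes that match other sequences as well. The median fold was -0.27 for 28 _at sets, -0.998 for 28 _a_at sets and -0.99 for 39 _x_at sets. Over all probe sets tested the same classes had medians of 0.48, 0.16 and 0.03.

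The folds were also split by signal. The mean signal and the fold come from the same 4 arrays, so a high naive signal raises the one and lowers the other, and the split is a description. Of the 98 tested ribosomal protein probe sets, 71 were in the brightest eighth of all those tested. Of these 34 were called lower and 7 higher (median -1.07), and among the 2710 other probe sets of that eighth 943 were lower and 243 higher (median -0.65). Of the 27 ribosomal protein probe sets outside it, 2 were lower and 12 higher (median 0.72). The bright probe sets spread little on the GC arrays and widely on the naive arrays. On GC pLN the 71 signals had a 90th percentile 1.95 times the 10th, on GC PP 2.02 times, on naive pLN 7.64 times and on naive PP 25.6 times. For the other 2710 bright probe sets the ratios were 3.98, 4.13, 4.78 and 10.97.

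**Figure D3:**
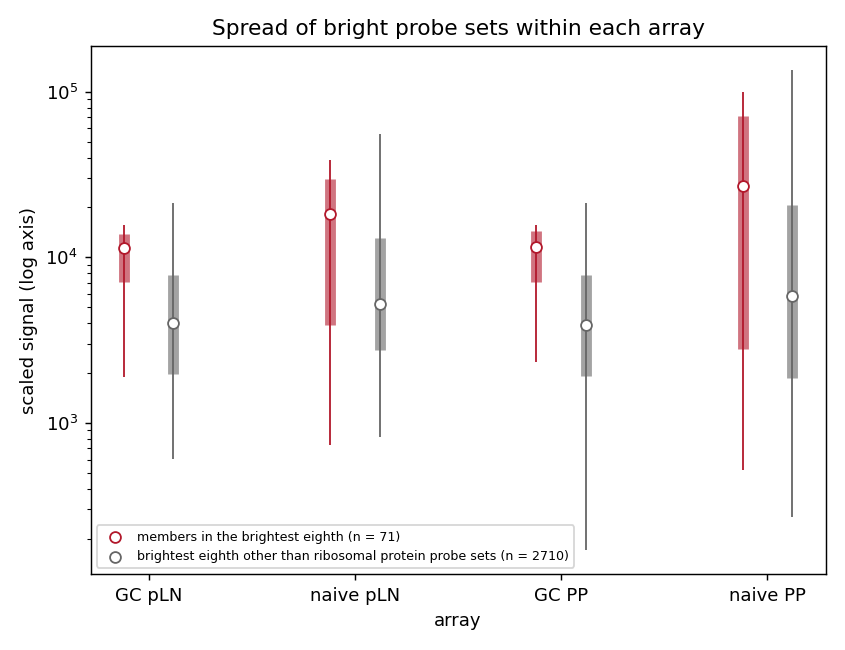
Scaled signal (log axis) of probe sets in the brightest eighth on each array, for 71 ribosomal protein probe sets and the 2710 others; circles are medians, thick bars the 10th to 90th percentile, thin lines the whole range. The ribosomal protein bars are short on both GC arrays (1.95- and 2.02-fold) and long on the naive arrays (7.64- and 25.6-fold).

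The 2 GC arrays were nearly the same for ribosomal protein genes, and the 2 naive arrays were not. Each of these comparisons sets 1 array against 1 array, so there is no test. Between PP and pLN GC cells, the 71 bright probe sets differed by a median of 0.05 in size on the log2 scale, with signed values from -0.16 to 0.43. The median size was 0.06 over the 98 tested ribosomal protein probe sets and 0.25 over all probe sets tested. This size was not taken for the other bright probe sets, so the part of brightness in the difference was not tested. Of 100 probe sets above the level, 1 was at least 2-fold higher in PP (4.3% of all) and 0 were lower (1.73% of all). That one was a dim probe set of Rpl39, a short protein of the peptide tunnel, with 55.6 in pLN and 131.6 in PP. A bright shared probe set of Rpl39 read 13268.7 in pLN and 14084 in PP GC cells.

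Between PP and pLN naive cells, the 71 bright probe sets differed by a median of 0.87 in size, with signed values from -2.44 to 1.75. The median size was 0.86 over the 98 tested ribosomal protein probe sets and 0.58 over all probe sets tested. Of 99 probe sets above the level, 27 were at least 2-fold higher in PP (10.8% of all) and 12 lower (17.0% of all). Rps3 (25068.5 to 77448.5), Rps28 (22789 to 65063), Rps10 (25079 to 70951) and Rps24 (18961 to 49887) were among the highest in PP. Rps14 (2882 to 520.4), Rpl12 (665 to 136), Rps9 (11647 to 3299.7) and Rps25 (1185 to 471) were among the lowest. Under spike-in scaling the counts were 0 higher and 45 lower, so the direction depends on the scaling.

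More probe sets passed 2-fold between GC and naive cells in PP than in pLN. In pLN, 18 of 100 probe sets were at least 2-fold higher in GC cells (29.2% of all) and 23 lower (17.1%). In PP, 20 of 101 were higher (38.2%) and 48 lower (22.9%). The fold was larger in PP in 77 of the 98 tested (78.6%), against 66.8% of all probe sets tested, and 92 of 98 had the same sign in both tissues. Across probe sets, which are not independent replicates, the folds in the 2 tissues had r = 0.86 and rho = 0.82 (n = 98), and r = 0.85 over all. The 3' to 5' control ratios of the naive array were larger in PP as well, and their part in this was not tested.

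**Figure D4:**
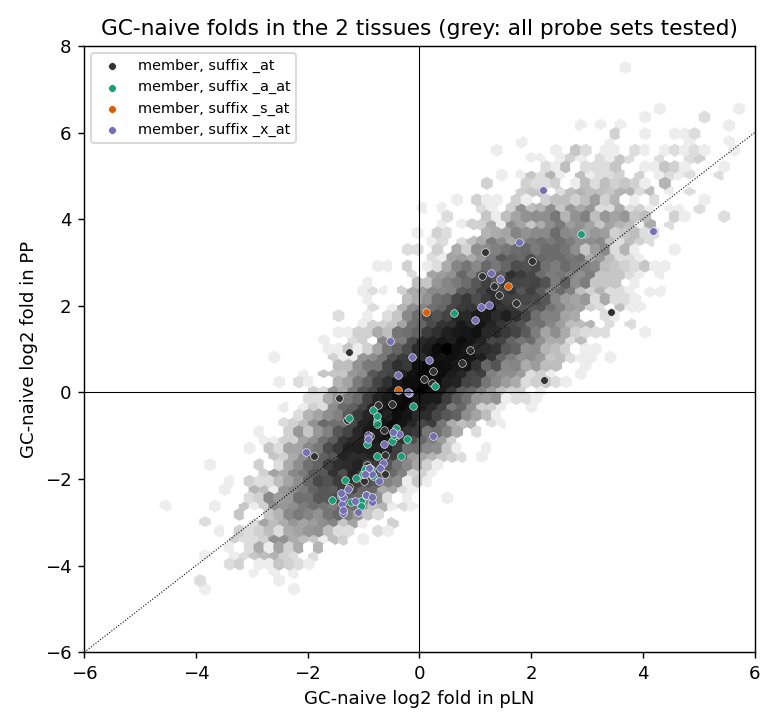
GC-naive log2 fold in pLN (x) and in PP (y) for the 98 tested ribosomal protein probe sets, coloured by suffix, over the density of all probe sets tested (grey); the dotted line marks equal folds. Of the 98 points, 92 lie in the quadrants of equal sign and 77 are farther from 0 in PP than in pLN.

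The rest of the translation machinery showed both directions. Counts use the brightest probe set of each gene, to be read against the 24.0% lower and 24.8% higher of all genes. Of 27 initiation factors, 3 were lower and 6 higher (median -0.61). Eif3c, a subunit of the eIF3 scaffold, read 5924, 16369.6, 5979 and 44469 (-2.18 ± 0.51, limma adjusted p = 0.000995), and Eif3m, another subunit, read 2851, 699.6, 2336 and 216 (2.68 ± 0.43, limma adjusted p = 1.7e-05). Other probe sets of Eif3c reached 1.74. Of 9 elongation and termination factors, 3 were lower and 2 higher (median -0.13). Eef2, which moves the ribosome along the mRNA, read 9271, 25812, 8523 and 43508 (-1.91 ± 0.52, limma adjusted p = 0.00342).

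Eef1a1, which brings the tRNAs, read 10654.5, 1193, 11169.8 and 1433 (3.05 ± 0.43, limma adjusted p = 3.0e-06). The 17 other genes with TOP mRNAs, Eef2 and Eef1a1 among them, had 4 lower and 1 higher (median -0.69).

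Genes that make ribosomes were likewise mixed. Of 53 biogenesis genes, 12 were lower and 9 higher (median -0.35). Nop56, a box C/D snoRNP protein, read 5495, 17337, 6797 and 40821 (-2.12 ± 0.50, limma adjusted p = 0.00106), and Rpf2, which helps load the 5S RNA, read 8991, 1027, 9614 and 491 (3.68 ± 0.43, limma adjusted p = 2.3e-07), though another of its probe sets stood at -0.56. Of 15 RNA polymerase I genes, 3 were lower and 4 higher (median -0.09). Taf1c, a promoter selectivity factor, had -2.59 ± 0.43 (limma adjusted p = 2.2e-05), and Ubtf, the rDNA architectural factor, had 1.90 ± 0.43 (limma adjusted p = 0.000756).

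Of 13 genes of mTORC1 and its effectors, 5 were lower and 3 higher (median -0.33). Mtor, the kinase, read 1289, 3651, 1397 and 6067 (-1.80 ± 0.42, limma adjusted p = 0.00108), and Rheb, the GTPase that activates it, read 2156, 722, 2087 and 49.6 (3.30 ± 0.54, limma adjusted p = 1.9e-05). Its naive PP signal lay under that array's detection level of 99.9, so the size of its fold is not exact. The 76 mitochondrial ribosomal protein genes, which build a separate ribosome, had 12 lower and 20 higher (median 0.12). Mrps35 (-1.75 ± 0.42, limma adjusted p = 0.00135) and Mrpl23 (2.63 ± 0.43, limma adjusted p = 2.3e-05) were at their ends. The sign of each of these list medians also turned under some other scaling.

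**Figure D5:**
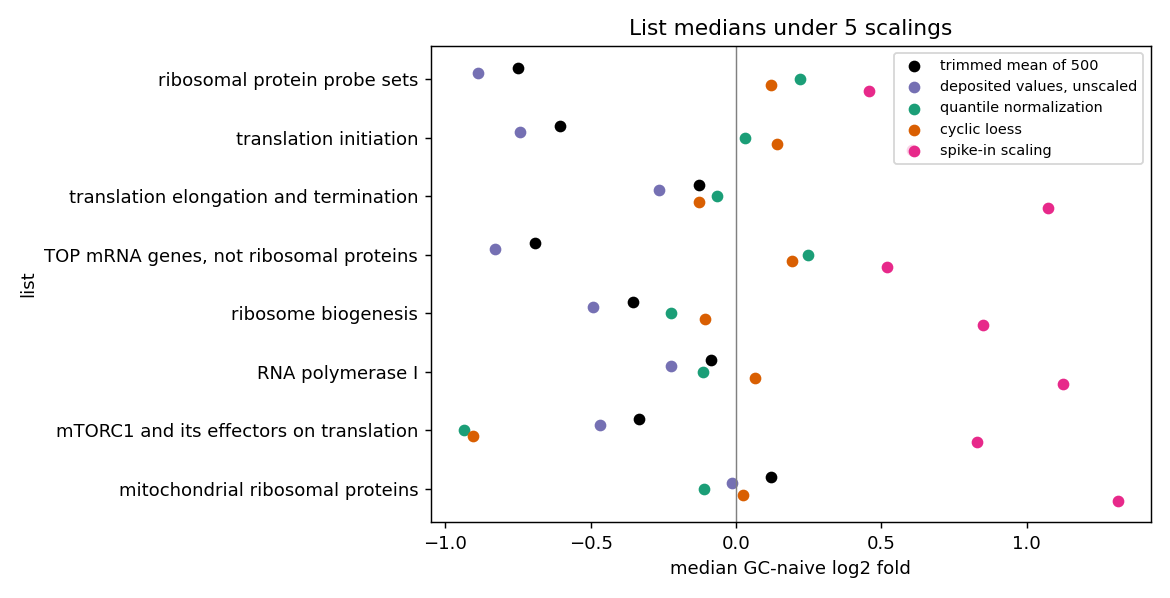
Median GC-naive log2 fold (x) of the 98 ribosomal protein probe sets and of 7 other lists (1 probe set per gene) under 5 scalings, each a point. The ribosomal protein median runs from -0.89 on the deposited values to 0.46 under spike-in scaling, and every list has its highest value under spike-in scaling.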

How the data were processed

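Affymetrix arrays measured 4 RNA samples. RNA was isolated with TRIzol and labelled as biotinylated cRNA per the labels, and GCOS made the signals, per the submitters' processing notes. The deposited values are intensities with a median of 1 on each array, and other steps: not given in the sources used here. A 2% trimmed mean of 500 was set for each array (factors 56.4, 50.0, 68.0 and 63.3). The median signal of 54 genes of other tissues, 14.2, was added before log2, and their 90th percentile was each array's detection level (34.3 to 99.9). Limma 3.58.1 (R 4.3.3) fitted cell type and tissue with an intensity trend and Benjamini-Hochberg adjustment. It had 1 residual degree of freedom and was tested on simulated data. The prior, taken from all probe sets at like signal, had 26.0 degrees of freedom. Each SE and p-value therefore rests mostly on a variance shared with other probe sets. A probe set's own disagreement between tissues enters with little weight, and no spread between mice is measured. The probe set brightest in mean log2 signal stood for a gene. The named genes were the 8 highest and 8 lowest folds, the 4 brightest, Rplp0, Rplp1, Rplp2 and Rpsa, paralogs with parents, the 6 widest probe set ranges, the 4 most extreme tissue folds and tissue differences, and the ends of each other list. Members, lists and rules were chosen with earlier results of these data known. Alternatives covered the offset, scaling, low-signal filter, choice of probe set, trend, block, a minimum fold and leaving out arrays. Protein lengths and identities were not analysed here. 0 value columns were unused.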

Additional observations from a re-analysis of the deposited data

Results flagged for a closer look

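The GC-naive log2 fold had opposite signs in the 2 tissues on 6 of the 98 tested probe sets. Each fold is 1 array against 1, so these differences were not tested. Rpl39, on a dim probe set whose naive PP signal lay under the detection level, was lower in GC than in naive cells of pLN (-1.26) and higher in PP (0.92), a difference of 2.18. A bright probe set that Rpl39 shares with another symbol read lower in GC cells in both tissues (-0.95 in pLN and -1.34 in PP, not called). A dim probe set of Rps18 read lower in GC cells in pLN (-0.53) and higher in PP (1.196), a difference of 1.72. Its signals were 233 and 342 in pLN and 379.6 and 158 in PP, GC cells first. A bright probe set of Rps18 went from -0.38 in pLN to 0.41 in PP, a difference of 0.79.

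Rpl27, on an _x_at probe set, went from -0.13 to 0.83, a difference of 0.96, and Rpl22, on an _s_at probe set, from -0.39 to 0.06, a difference of 0.45. Rps24, on a bright probe set, went the other way, higher in GC cells in pLN (0.24) and lower in PP (-0.998), a difference of -1.24. Its signals were 11759, 9964, 12219.5 and 24425 in the same order.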

How the results depend on the processing

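Arrays could not be paired by replicate, because the labels carry no replicate numbers and each group is 1 array. With tissue as the block, the GC and naive arrays were compared within each tissue. Without the block 18 probe sets were higher and 37 lower. Counts below are higher then lower, with main values of 19 and 36 called in the limma comparison, 18 and 23 at 2-fold in pLN, 20 and 48 in PP, 1 and 0 for PP-pLN in GC cells, and 27 and 12 for PP-pLN in naive cells. Leaving out 1 array gave 6 to 22 higher and 0 to 59 lower, with medians of -0.97 to -0.64; the lone array of a cell type is there assumed to vary like the others. The lower calls fell to 0 without GC pLN or GC PP (8 and 6 higher) and rose to 59 and 57 without naive pLN or naive PP. Quantile normalization gave 30 and 6, with a median of 0.22, 6 lower in pLN, 9 lower in PP, and 0 and 1 in GC cells and 4 higher in naive cells. Cyclic loess gave 6 lower calls and a median of 0.12, 5 lower in pLN, 8 lower in PP, 0 and 1 in GC cells and 8 higher in naive cells. Spike-in scaling gave 11 and 0 with a median of 0.46, 3 lower in pLN, 45 and 0 in PP, and 0 and 45 in naive cells. The deposited values gave 40 lower in pLN, 0 and 2 in GC cells, and 13 and 20 in naive cells. Without a filter there were 20 lower (18.9% of members, against 9.98% of all). An offset of 1 gave 1 lower in GC cells and an offset 4 times as large gave 0 higher there. The remaining settings count over fewer features. With 1 probe set per gene, refitted, there were 5 and 16 (median -1.14), against 6 and 24 on the same probe sets in the fit over all, 5 and 14 in pLN, 6 and 29 in PP, and 17 and 6 in naive cells. With the mean of a gene's probe sets there were 7 and 19, 4 and 8 in pLN, 6 and 22 in PP, and 9 and 6 in naive cells. With suffix _at alone there were 8 and 6 (median -0.27), 9 and 5 in pLN, 7 and 9 in PP, and 5 and 6 in naive cells. Over all features, limma called 23.4% higher and 22.9% lower in the refit with 1 probe set per gene. The shares were 31.7% and 20.0% with gene means, and 34.4% and 16.0% with suffix _at.

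The 55 probe sets named, of 46 genes, had 43 that were called. For these, 602 of 768 alternative values kept their call, 159 lost it and 7 reversed; the other 12 gained a call in 21 of 219 alternatives. Reversed were Rpl7, which was not called (0.93 under quantile, 0.92 under loess), Rplp0 (0.030), Rps24 (0.10) and Rpsa (0.064) under quantile, Rpl41 (0.069 under spike-ins, 0.26 as the gene mean), and Rps20 (0.52) and Rps3 (0.00026) as gene means. List medians reversed for initiation (0.031 quantile, 0.14 loess, 0.60 spike-ins, 0.67 gene mean), elongation (1.07 spike-ins, 0.44 gene mean), TOP genes (0.25, 0.19 and 0.52 under quantile, loess and spike-ins), biogenesis (0.85 spike-ins, 0.0019 gene mean), polymerase I (0.067 loess, 1.12 spike-ins, 0.36 gene mean), mTORC1 (0.83 spike-ins) and mitochondrial ribosomal proteins (-0.015 deposited, -0.11 quantile). The cause of these changes was not tested. Signals near the detection level limit Rps20's dim probe sets, Rpl39, Rpl37, Rps4l and Rheb. Protein-length classes were not run.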

Other observations

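The 18S ribosomal RNA control probe sets were all brighter on the GC arrays. Whether their signals follow the amount of 18S RNA in the cells was not tested. The middle control read 8682 in GC and 3407 in naive cells of pLN, and 10173 and 3239.8 in those of PP. In the same order the 5' control read 368, 8.0, 493 and 16.5, and the 3' control read 378, 75.1, 531 and 125. The naive values of the 5' control lay under the detection levels of their arrays (74.2 in pLN and 99.9 in PP). The naive pLN value of the 3' control was close to that level. Both GC arrays lay above both naive arrays on all 3 controls, each of which has 1 value per group and no test.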
